A study of Rattus norvegicus with 8 samples.

Results

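The metabotropic glutamate receptors are G protein-coupled receptors for glutamate, and their genes were chosen by symbol: every 3′ end site in the files whose symbol was Grm3, Grm4, Grm5, Grm7 or Grm8. These 5 genes held 167 of the 98356 sites in the data set. Grm2 was also on the list of 6 genes, but no row carried that symbol, and it is not analysed here. The libraries were made from the hypothalamus of adult male Long-Evans rats, named as mediobasal in the series' design text. Libraries 1, 2, 3 and 5 of the cannabis group came from rats placed in a chamber with vaporized cannabis plant matter for 10 min, and libraries 1 to 4 of the air control group from rats that went through the same procedure with no plant matter in the device. Food was removed from both groups for the 1 hr between exposure and tissue collection. The sequencing method, WTTS-Seq, reads RNA at its polyadenylated 3′ end, and each site is a cluster of such ends.

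Metabotropic receptors are sorted into 3 groups by sequence and coupling. Group I, to which Grm5 (mGluR5) belongs, sits mainly on the postsynaptic side, signals through Gq and phospholipase C, and can start the synthesis of the endocannabinoid 2-arachidonoylglycerol, which acts back on the presynaptic CB1 receptor. Group II, to which Grm3 (mGluR3) belongs, and group III, with Grm4 (mGluR4), Grm7 (mGluR7) and Grm8 (mGluR8), act through Gi/o proteins, and many of these receptors sit on nerve endings and lower transmitter release. Grm3 is also expressed by astrocytes and responds to the peptide N-acetylaspartylglutamate (NAAG). Grm7 lies in the active zone and needs a high glutamate level, while Grm8 responds to low levels.

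A value in the files is the number of reads on a site divided by a size factor of its library, called here a normalized count, and the reads behind each value could be recovered. Between 1159811 and 3706778 reads per library fell on sites, of which 617 to 1823 belonged to the receptors. Air control 4 and cannabis 1 stood apart from the others, with 26.1% and 17.0% of all sites at 0 against at most 10.3% elsewhere. Their deviations from their group means went together (Pearson's r = 0.469 across sites with a mean of at least 10, which share both libraries' depth and are not independent). It was the highest r of any control and cannabis pair. The 13 pairs with different replicate numbers ran from -0.347 to 0.469, and the 3 with the same number from -0.23 to 0.08. All 10 hypothalamic marker genes were measured. Of 11 marker lists, 2 had summed levels that did not overlap between the groups: the hypothalamic list, at 7397 to 9474 normalized counts in cannabis and 3284 to 5624 in air control libraries, and the list for midbrain dopamine neurons, at 150 to 332 and 652 to 852. Of the 10 hypothalamic genes only Avp (vasopressin), the most abundant, did not overlap by itself, at 4934 ± 1383 in cannabis and 1952 ± 996 in air control libraries (SD, n = 4 each), and the other 9 summed to 2634 to 4119 and 1857 to 2542. In the dopamine list Slc6a3, Th and En1 did not overlap and the other 3 did. Of these, Slc18a2 and Pitx3 had lower means in cannabis than in air control libraries. Foxa1 had a higher mean, 5.87 ± 2.98 in cannabis and 3.18 ± 2.05 in air control libraries (SD, n = 4 each). The astrocyte list (6 of 6 genes measured) ran from 6684 to 8877 and from 5426 to 7526. The part of these differences in the receptor values was not tested.

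The receptor genes differed in how their reads were laid out. Grm4 had a single site, which held all of its 768 reads. Grm3 had 24 sites, Grm5 had 41, Grm7 had 63 and Grm8 had 38. In Grm3, Grm5 and Grm7 no site led: the site with the most reads held 10.7%, 11.1% and 9.88% of the gene over the 8 libraries, and 6, 8 and 14 sites were needed to reach 50% of the reads. In Grm8 a single site held 55.8% of the gene, and the next brought the sum to 60.0%. Most sites were thin. The median receptor site had 30 reads over all 8 libraries, the lowest had 16, and 23 of the 167 sites had a mean of at least 10 normalized counts. A read was found in all 8 libraries at 83 sites, and the number of receptor sites with a read ran from 116 in air control 4, the library with the fewest reads, to 163 in cannabis 2.

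**Figure D1:**
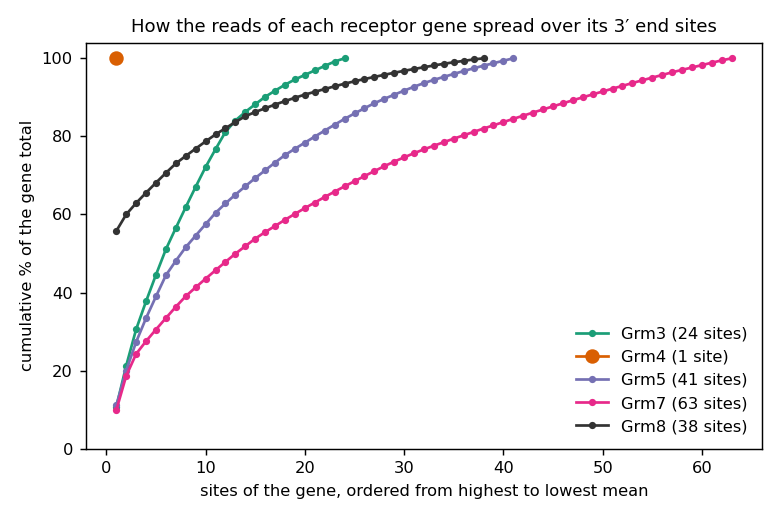
Cumulative percent of each gene's normalized counts (y axis) over its sites ordered from the highest to the lowest mean of the 8 libraries (x axis). Grm8 starts at 55.8% with its leading site, Grm4 has 1 site at 100%, and the curves of Grm3, Grm5 and Grm7 start between 9.88% and 11.1%.

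Only the leading Grm8 site could be placed on the genome, since the study's site table was held here in part. It lies on chromosome 4 of Rnor_6.0 from 54665753 to 54666141, in a region the study classed as intronic, and its reads are on the plus strand. RefSeq's table for a later assembly, GRCr8, has the Grm8 gene on the minus strand. The strands of transcript-end sites within 5 Mb of it were compared in the same way. All 5, in Ndufa5, Arf5, Ube2h, Snd1 and Atp6v1f, had the strand of their gene. The strand of Grm8 itself in Rnor_6.0 was not checked, and a difference between the assemblies at that gene was not tested. An opposite strand was common among sites of its own class: over the part of the table held here, 29 of 73 intronic sites (39.7%) had the strand of their gene, against 770 of 795 transcript-end sites (96.9%). The strand of the leading site was thus opposite to that of Grm8 as the later assembly has it, and Grm8 is given below with and without this site. The strand of the other 166 receptor sites was not analysed here, and no sequence of a site could be read without a genome of that build.

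No receptor total passed the test between cannabis-exposed rats and air controls. After cannabis 4 of the 5 means were higher, where 56.4% of all gene totals had a log2 fold change above 0. Totals were summed over the sites of a gene and tested with limma on log2(normalized count + 1), a scale that understates changes of low values. Of the 5 totals, 0 had P under 0.01 and 0 had P under 0.05, where 0.278% and 2.41% of all 18003 gene totals did. edgeR and DESeq2 on the recovered reads also gave 0 of 5 at P under 0.01. In each of the 5 genes the groups overlapped. The adjusted P from limma was 0.999 for each.

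Grm5, the group I receptor, had 262, 257, 271 and 201 normalized counts in air controls 1 to 4 and 246, 204, 283 and 290 in cannabis 1, 2, 3 and 5. The low values were air control 4 and cannabis 2, and the others lay between 246 and 290 in both groups. The means were 248 ± 32.1 for air and 256 ± 39.8 for cannabis (SD, n = 4 each). The log2 fold change was 0.04 (95% interval -0.39 to 0.48), which spans folds from 0.761 to 1.39. limma gave P = 0.841, and the exact permutation test, two-sided here and below, gave P = 0.714. Its direction turned with the data used: it was -0.06 without air control 4, -0.01 without cannabis 3 and -0.02 without cannabis 5.

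Grm3, the group II receptor, had 202, 196, 186 and 111 normalized counts in the air controls and 184, 225, 163 and 158 in cannabis-exposed rats, in the same order of replicates. Air control 4 was the lowest of the 8 libraries, and the remaining 7 lay between 158 and 225. Group means were 174 ± 42.4 and 183 ± 30.4 (SD, n = 4 each), with a log2 fold change of 0.09 (interval -0.42 to 0.61; limma P = 0.700, exact permutation P = 0.800). Without air control 4 the sign turned, to -0.11, and without cannabis 2 it was -0.01. In bulk tissue, fewer cells that express a gene and less RNA per cell cannot be told apart, and for Grm3, which neurons and astrocytes share, neither can the cell type.

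Among the group III receptors, Grm4 had 61.4, 111, 72.5 and 69.5 normalized counts in air controls and 93.1, 84.4, 149 and 73.0 in cannabis-exposed rats. Cannabis 3 was highest, and air control 2 came next. Its log2 fold change of 0.32 (interval -0.28 to 0.92) was the largest in size among the 5 totals, with P = 0.267 from limma and P = 0.314 by the exact permutation test, and it fell to 0.12 without cannabis 3. Grm4 also varied most between the libraries of a group: the coefficient of variation within groups was 31.1%. Counting error alone gives 11.1% at its 35 to 151 reads per library. With 1 library per rat, variation between rats and between libraries cannot be told apart.

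Grm7 varied least between the libraries of a group among the 5 totals. It had 279, 219, 252 and 282 normalized counts in air controls and 282, 242, 238 and 321 in cannabis-exposed rats. The highest value was cannabis 5 and the lowest air control 2. The means, 258 ± 29.3 and 271 ± 39.0 (SD, n = 4 each), differed by 0.06 on the log2 scale (interval -0.36 to 0.48; limma P = 0.746, exact permutation P = 0.686). The sign turned without air control 2, to -0.01, and without cannabis 5, to -0.02. The coefficient of variation within groups was 13.0% for Grm7, 14.3% for Grm5 and 20.9% for Grm3, against 6.27%, 6.54% and 8.04% from counting.

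Grm8 had 431, 579, 442 and 562 normalized counts in air controls and 407, 338, 525 and 515 in cannabis-exposed rats, and was the one gene of the 5 with a lower mean after cannabis (503.6 ± 77.9 against 447 ± 89.9, SD, n = 4 each). The log2 fold change was -0.18 (interval -0.63 to 0.27, limma P = 0.397, exact permutation P = 0.371), within the spread between libraries. The leading site had 242, 375, 225 and 336 normalized counts in controls and 181, 146, 314 and 301 after cannabis. Cannabis 1 and 2 were the lowest of the 8 and air control 2 the highest, and the groups overlapped. Its log2 fold change was -0.36 (interval -1.01 to 0.28; limma P = 0.258, exact permutation P = 0.343).

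The other 37 Grm8 sites together varied about as much as counting alone gives. They summed to 189, 205, 217 and 226 normalized counts in air controls and to 226, 192, 212 and 214 in cannabis-exposed rats, and their coefficient of variation within groups, 7.19%, stood beside 6.96% from counting. Their log2 fold change was 0.01 (interval -0.39 to 0.41; limma P = 0.95, exact permutation P = 0.886). Leaving the leading site out therefore took the Grm8 difference from -0.18 to 0.01, a choice made after its strand was seen.

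**Figure D2:**
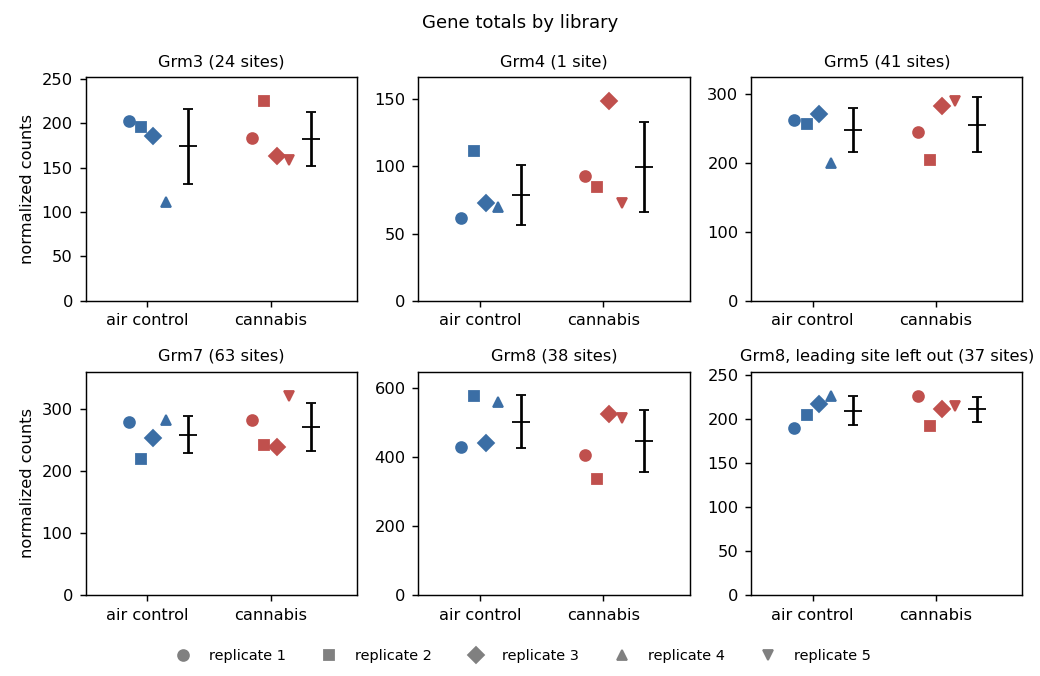
Normalized counts of each receptor gene (y axis, from 0), summed over its sites, in air control (blue) and cannabis libraries (red), 1 symbol per library, with the mean and SD of each group (n = 4) in black. The groups overlap in every panel, and the last panel, Grm8 without its leading site, holds all 8 libraries between 189 and 226.

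The leading site was also compared as a share of the Grm8 reads. It held 56.1%, 64.7%, 50.9% and 59.7% in air controls and 44.5%, 43.2%, 59.7% and 58.4% in cannabis-exposed rats. The lowest share, in cannabis 2, had a 95% Wilson interval of 39.0 to 47.6%, and the highest, in air control 2, one of 60.3 to 68.8%; these intervals cover counting error only. Cannabis 1 and 2 were below every control and cannabis 3 and 5 within their range. The means of 57.9% ± 5.81 and 51.5% ± 8.81 (SD, n = 4 each) did not differ beyond that spread (P = 0.494 from limma on the log2 ratio, P = 0.286 by the exact permutation test on the percent).

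**Figure D3:**
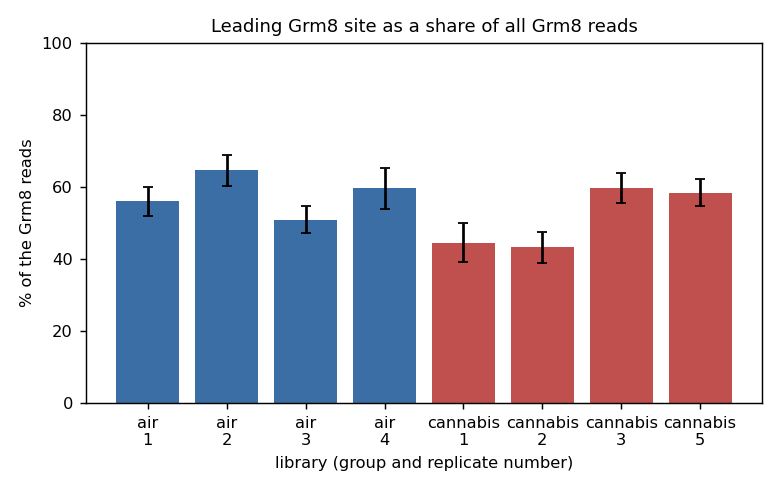
Percent of the Grm8 reads that lie on its leading site (y axis) in each library (x axis), with 95% Wilson intervals as error bars. Cannabis 1 and 2, at 44.5% and 43.2%, lie below the air controls, which run from 50.9% to 64.7%, and cannabis 3 and 5 lie among them.

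Site by site, none of the 167 receptor sites had P under 0.01 in limma, where 0.381% of the 98356 sites did. edgeR and DESeq2 gave 0 of 167 as well. At P under 0.05 there were 2 receptor sites (3.03% of all sites), and the lowest adjusted P of a receptor site was 1.00. By the sign of the log2 fold change, 96 receptor sites lay above and 71 below the air controls after cannabis, with a median of 0.07, where 50.9% of all sites were higher and the median was 0.01. Grm7 had 40 higher and 23 lower sites, Grm5 had 23 and 18, Grm8 had 20 and 18, and Grm3 had 12 each way. The sites of a gene come from the same 8 libraries and are not independent, so these counts are a description. Whether they come from the same transcripts was not tested.

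The leading sites of Grm3, Grm5 and Grm7 overlapped between the groups too. The leading Grm5 site had 30.0, 33.5, 36.9 and 5.96 normalized counts in air controls and 12.4, 37.9, 29.5 and 37.6 in cannabis-exposed rats. It was low in air control 4 and cannabis 1, the libraries with the most sites at 0, and between 29.5 and 37.9 in the other 6. Its log2 fold change was 0.28 (exact permutation P = 0.600), and -0.29 without air control 4. The leading Grm7 site ran from 23.9 to 33.6 in controls and from 17.3 to 30.5 after cannabis, a log2 fold change of -0.20 (exact permutation P = 0.400). In Grm3, where 2 sites held over 10% of the gene, the first ran from 9.93 to 27.5 and from 9.93 to 26.6, and the second from 14.4 to 21.8 and from 12.8 to 29.9. Their log2 fold changes were -0.20 and -0.04 (exact permutation P = 0.657 and 0.971).

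Some thin sites are named here because of their values. The sixth site of Grm3 by level, site 6, had 8.77, 4.79, 13.4 and 1.99 normalized counts in air controls and 19.9, 21.3, 6.89 and 16.1 in cannabis-exposed rats. Cannabis 3 lay among the controls. The log2 fold change was 1.17 (interval 0.02 to 2.32; limma P = 0.0464, adjusted to 1.00; exact permutation P = 0.114). Grm5 site 20 had 28 reads in all. It gave 4.39, 2.39, 4.03 and 15.9 normalized counts in air controls and 1.24, 1.99, 0 and 1.54 after cannabis, so that every control was above every cannabis-exposed rat, and air control 4, with 8 reads, was far above the other controls. The log2 fold change was -1.63 (interval -2.94 to -0.31; limma P = 0.0175, adjusted to 1.00; exact permutation P = 0.0286, the smallest possible with 4 against 4 rats). The absence of reads in cannabis 3 was 0 of 288 Grm5 reads, which allows a share of up to 1.04%.

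At 2 further sites the groups did not overlap. Grm8 site 29, with 17 reads, had 2.19, 2.39, 2.01 and 9.93 normalized counts in controls and 1.24, 0.664, 0.984 and 0.768 after cannabis, which is 1 read in each cannabis library. Grm7 site 27, with 29 reads, had 1.46, 2.39, 2.01 and 1.99 in controls and 7.45, 2.66, 2.95 and 6.14 after cannabis. limma gave P = 0.0701 and 0.127, and the exact permutation test its smallest value, 0.0286, for both. In all, 2 of 167 receptor sites were lower without overlap, where 1.01% of all sites were, and 1 was higher, where 0.992% were. These shares are near those of the whole data set.

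**Figure D4:**
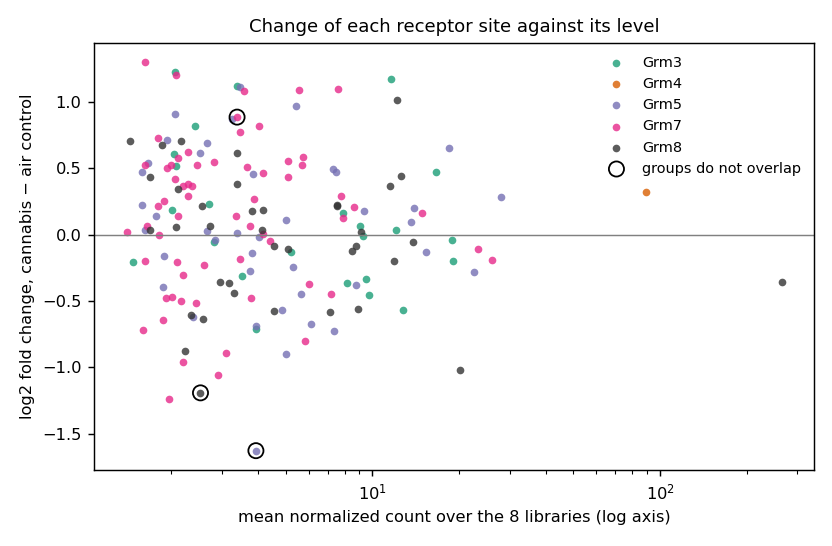
Log2 fold change of each of the 167 receptor sites, cannabis minus air control (y axis), against its mean normalized count over the 8 libraries (x axis, log scale), colored by gene, with rings around the 3 sites whose groups do not overlap. The ringed sites all have means below 4, and the site farthest to the right is the leading Grm8 site, at 265.

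Whether the choice of site within a gene changed was asked apart from the level of the gene. For this the log2 ratio of each site to the remaining sites with the same symbol, on whatever strand, was fitted. This was possible for the 166 sites outside Grm4. None had P under 0.01 in limma (0.451% of 54160 sites did) and 1 had P under 0.05 (3.22% of all), Grm5 site 20, whose share was 3.0% ± 3.29 in controls and 0.503% ± 0.399 after cannabis (SD, n = 4 each; P = 0.0571 by the exact permutation test). A replicate block brought 1 of these 166 shares below the limit of 0.01 in limma, as it did 127 of all 54160 (0.234%). It was Grm7 site 50 with 20 reads (log2 change -2.38, adjusted P = 1.00 in limma, against -1.32 without the block). The leading Grm5 site held 10.3% ± 4.95 and 11.7% ± 5.62 of its gene, and that of Grm7 10.8% ± 1.19 and 9.13% ± 2.59. In Grm3 the first site held 11.4% ± 2.13 and 10.1% ± 5.22, and the second 11.8% ± 5.40 and 10.2% ± 2.28. Each of these shares overlapped between the groups, with P from 0.314 to 0.771 by the exact permutation test.

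The genes that act with these receptors were read from the same fit of totals. The list named 40 genes under 42 symbols, since Grasp and Grk2 each stood under an older or newer name too, and 39 were measured. Of these, 0 had P under 0.01 or under 0.05 in limma, and edgeR and DESeq2 gave 0 at P under 0.01. Their median log2 fold change was -0.05, against 0.05 over all gene totals. Of the 39, 18 were higher and 21 lower, where 56.4% of all gene totals were higher. The scaffolds and partners, which hold the receptors at the synapse, ran from -0.44 (Homer2) to 0.92 (Shank2, at 11.8 ± 8.21 against 16.1 ± 9.10 normalized counts, with air control 4 at 0). Homer1, which ties Grm5 to its signaling partners, had 32.2 ± 1.62 normalized counts in controls and 25.6 ± 8.96 after cannabis, and Pick1, a partner of Grm7, 73.1 ± 11.03 and 90.3 ± 34.0.

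In the Gq arm that Grm5 uses, 7 of 11 genes were higher and 4 lower, where 56.4% of all gene totals were higher. The median of the arm was 0.17. Plcb1, a phospholipase C downstream of Gq, was the single gene among the 39 whose groups did not overlap. Over all gene totals, 1.19% were higher and 0.783% lower without overlap. Plcb1 stood at 294 ± 10.7 normalized counts in controls and 334 ± 14.5 after cannabis (log2 fold change 0.18, limma P = 0.310, exact permutation P = 0.0286). Plcb3 (32.4 ± 5.19 and 41.3 ± 5.32) and Plcb4 (179 ± 90.0 and 152 ± 72.9), also on the list, overlapped between the groups. Dagla, which makes 2-arachidonoylglycerol, had 29.0 ± 10.2 and 28.8 ± 6.69. In the Gi/o arm of group II and III receptors 5 of 7 genes were lower and 2 higher, with a median of -0.17. Gnao1, the alpha subunit of Go, was among the lower (849 ± 287 and 711 ± 291, exact permutation P = 0.486). Gnai2, the gene with the highest level in this arm, was higher (1730 ± 144 and 2039 ± 342, exact permutation P = 0.114). Of the 3 genes that make or break NAAG, 1 was higher and 2 were lower, with a median of -0.18. The synthetase Rimklb had 50.9 ± 21.0 and 70.8 ± 3.87 (exact permutation P = 0.143), the synthetase Rimkla 41.7 ± 9.98 and 37.8 ± 13.8, and Folh1, which cleaves NAAG, 22.5 ± 13.2 and 19.8 ± 11.6. Slc1a3, a glutamate transporter of astrocytes, had 1173 ± 364 and 1627 ± 423 normalized counts (log2 fold change 0.48, exact permutation P = 0.171). Slc1a2, another glutamate transporter on the same list, had 54.7 ± 7.91 and 53.2 ± 5.47 (log2 fold change -0.03). Of the 7 genes of glutamate uptake, synthesis and loading, 3 were higher and 4 lower. All SD here are over 4 rats.

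The genes whose totals moved most like each receptor over the 8 libraries were named by the smallest root mean square difference of centered log2 totals, among 12113 other genes with a mean of at least 10 normalized counts. These were Itgb7 and Elp3 for Grm3 (differences of 0.09 on the log2 scale for both), Polr3e and Tspoap1 for Grm4 (0.15 for both), Pole2 and Tacr3 for Grm5 (0.09 and 0.10), Vezt and Robo1 for Grm7 (0.07 and 0.08), and Ttc4 and Wdr66 for Grm8 (0.09 for both). They were picked as the closest of many, and all genes were read from the same 8 libraries, which differed in depth.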

How the data were processed

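RNA of 4 cannabis-exposed and 4 air-treated rats was sequenced by WTTS-Seq, 1 library per rat. By the study's methods the authors aligned trimmed reads to Rnor_6.0 by TMAP, grouped neighboring read ends as a site, dropped those under 16 reads and named genes through Cuffcompare. The signal values the authors deposited are reads divided by the DESeq2 size factor of a library. Every value was within 0.01 of a whole number of reads (100% of values), 1 read being worth 0.664 to 1.99 normalized counts. Groups and replicate numbers came from the sample titles. Libraries of a group differed by more than sampling noise (chi-square per degree of freedom at least 6.36 in every pair).

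Files were joined by row order. Sites, gene totals and within-gene site ratios (genes with at least 2 sites and a mean of at least 10) were fitted across the whole table on log2(value + 1) with limma 3.58.1 (eBayes with trend; R 4.3.3), cannabis against air control, without covariates, with Benjamini-Hochberg adjustment. The threshold, P under 0.01, follows the study. The fits were tested on simulated data, with log2 changes of 2 set at 200 sites with a mean of at least 20. Every simulated site had the same dispersion, 0.2, and simulated libraries differed by depth and random draws only. At P under 0.01 limma found 90.0% of the changed sites and 54.7% of the 137 changed site ratios. It called 0.97% of the unchanged sites, where it called 0.381% of all sites in the real data. The share of changes that the fit finds in the real libraries was not measured. Smaller changes and sites of lower level were not simulated, and only 23 of the 167 receptor sites had a mean of at least 10. Single values had an exact permutation test over the 8 libraries. Other settings tried were a replicate block, leaving out single libraries, 0.5 or 5 as pseudocount, a minimum mean of 10, no trend, equal library totals, and edgeR 4.0.16 and DESeq2 1.42.0 on the recovered reads. Python 3.11.15, pandas 2.3.3 and scipy 1.17.1 did the other steps.

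The receptors, lists and tests were chosen with earlier results of these data known. Named sites are the leading site of each gene, sites with at least 10% of their gene, and sites with P under 0.01; others named in the text were chosen after their values were seen. Some genes of these lists are not reported here.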

Additional observations from a re-analysis of the deposited data

How the results depend on the processing

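The counts of receptor sites, receptor totals and pathway genes with P under 0.01 in limma were 0 in the data as reported and 0 under each alternative run: the replicate block, each library left out, both pseudocounts, the mean filter, no trend, equal totals, edgeR, DESeq2 and, chosen after seeing the data, leaving out air control 4 and cannabis 1. Within-gene shares gave 0 throughout except with the replicate block, which gave 1 of 166 (0.234% of all sites passed there); edgeR and DESeq2 were not run on shares. Libraries with the same number did not deviate together (mean correlation -0.051 over 3 pairs, against 0.017 over 13 others), and the block gives air control 4 and cannabis 5 no weight.

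Signs of uncalled fold changes turned in 32 of 277 refits of 17 values. With the replicate block the log2 fold changes were -0.043 for the Grm3 total, -0.12 for the Grm5 total, 0.088 for Grm3 site 2 and -0.45 for Grm5 site 1, and the within-gene changes of these sites were 0.15 and -0.35. Without air control 4 and cannabis 1 they were -0.11 and -0.042 for the Grm3 and Grm5 totals, 0.054 for Grm3 site 2 and 0.19 for its within-gene change. On the reads, edgeR and DESeq2 gave -0.0004 and -0.0073 for the Grm5 total and 0.060 and 0.037 for Grm3 site 2. With equal totals the Grm8 sites other than the leading one gave -0.0088.

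With 1 library left out in turn, log2 fold changes ran from -0.11 to 0.18 for the Grm3 total, -0.057 to 0.15 for the Grm5 total, -0.021 to 0.12 for the Grm7 total, -0.035 to 0.056 for the Grm8 sites other than the leading one, -0.50 to 0.025 for Grm3 site 1, -0.27 to 0.12 for Grm3 site 2 and -0.29 to 0.63 for Grm5 site 1, and within-gene changes from -0.37 to 0.16 for Grm3 site 2 and -0.25 to 0.64 for Grm5 site 1. The cause of these turns was not tested. A site with the median of 30 reads has about 4 reads per library, and such depth limits what a site can show.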
